A study of Mus musculus with 12 samples.

Results

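The 5 guanylate-binding protein genes of the cluster on mouse chromosome 3 (Gbp5, Gbp7, Gbp3, Gbp2b and Gbp2) were followed through the 633 genes that the authors listed as changed by a mixture of factors, called the cocktail. They were taken by gene name from that list, and all 5 are on it. The list was made from the same libraries described here, so the levels, folds and fitted changes below are descriptions of these genes, and no p-value is given for them.

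Poly(A) RNA was sequenced from aggregates of the mouse ES cell line 129w2, with 3 libraries of aggregates given the cocktail and 3 of control aggregates at day 7. All aggregates started from 3000 cells per well, received BMP4 (2 ng/ml) on day 3 and basic FGF (25 ng/ml) with retinoic acid (1 µM) on day 4, and moved to new plates on day 5. The sources used here do not give what the cocktail contained, when it was added or the day of collection, so its effect and a difference in stage cannot be told apart. A co-culture experiment with mSMGs (days 5 to 7) has 3 libraries and 3 day 7 controls of its own. Separate cultures are not stated for the replicates, so their spread may be technical, and only 1 cell line was used.

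Guanylate-binding proteins are large GTPases that cells make in response to interferons, above all interferon gamma. In the mouse they assemble on the vacuoles of parasites and on bacteria, where they take part in breaking the vacuole and in switching on inflammasomes. Interferon gamma signals to GAS elements, and IRF1 and related factors act on ISRE elements, both of which are known from promoters of this family. Gbp2, Gbp2b and Gbp5 carry a prenylation motif at the C terminus that anchors them to membranes, while Gbp3 and Gbp7 lack it.

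The genes follow each other on the plus strand within 144.0 kb (GRCm38, GENCODE M21). Gbp5 (ENSMUSG00000105504) lies at chr3:142493978-142522344 and Gbp7 (ENSMUSG00000040253) at chr3:142530342-142550149. Gbp3 (ENSMUSG00000028268) lies at chr3:142560026-142573209, Gbp2b (ENSMUSG00000040264), formerly called Gbp1, at chr3:142594847-142619179, and Gbp2 (ENSMUSG00000028270) at chr3:142620602-142638008. The last pair is the closest, with 1.42 kb between Gbp2b and Gbp2. Of 11 protein-coding genes within 1 Mb of the cluster, the 5 members were on the authors' list and no other was, among the 594 of 633 listed genes that have an annotated position.

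The 250 bases before the RefSeq start of each gene (GRCm38.p6, plus strand, 5′ to 3′) are shown because all 5 genes were higher together. RefSeq starts can differ from GENCODE gene starts, and the Gbp5 window lies inside the GENCODE gene. Capitals mark matches to an ISRE-like motif (GAAA, any 2 bases, then GAAA) or a GAS-like motif (TTCNNNGAA), each searched on both strands, so an ISRE on the minus strand reads TTTC, any 2 bases, TTTC here. For Gbp3 the first of its RefSeq starts is shown.
Gbp5, chr3:142496684-142496933: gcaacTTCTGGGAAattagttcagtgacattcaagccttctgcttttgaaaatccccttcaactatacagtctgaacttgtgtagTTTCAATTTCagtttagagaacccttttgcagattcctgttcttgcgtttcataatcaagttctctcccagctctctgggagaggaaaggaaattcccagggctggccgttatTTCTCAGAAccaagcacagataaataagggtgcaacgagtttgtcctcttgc
Gbp7, chr3:142530086-142530335: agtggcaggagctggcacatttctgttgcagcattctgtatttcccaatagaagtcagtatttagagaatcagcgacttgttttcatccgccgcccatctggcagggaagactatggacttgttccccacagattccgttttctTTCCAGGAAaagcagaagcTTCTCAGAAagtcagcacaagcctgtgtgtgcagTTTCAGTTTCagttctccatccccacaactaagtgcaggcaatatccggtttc
Gbp3, chr3:142559794-142560043: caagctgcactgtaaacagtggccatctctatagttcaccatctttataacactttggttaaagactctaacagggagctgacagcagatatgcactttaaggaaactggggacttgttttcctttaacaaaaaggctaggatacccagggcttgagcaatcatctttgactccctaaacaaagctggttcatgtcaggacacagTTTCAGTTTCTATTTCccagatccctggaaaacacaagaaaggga
Gbp2b, chr3:142594597-142594846: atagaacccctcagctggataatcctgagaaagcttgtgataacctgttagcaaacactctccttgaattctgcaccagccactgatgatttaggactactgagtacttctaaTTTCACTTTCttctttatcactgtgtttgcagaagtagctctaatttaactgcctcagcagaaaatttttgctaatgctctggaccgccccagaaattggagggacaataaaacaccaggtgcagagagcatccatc
Gbp2, chr3:142620413-142620662: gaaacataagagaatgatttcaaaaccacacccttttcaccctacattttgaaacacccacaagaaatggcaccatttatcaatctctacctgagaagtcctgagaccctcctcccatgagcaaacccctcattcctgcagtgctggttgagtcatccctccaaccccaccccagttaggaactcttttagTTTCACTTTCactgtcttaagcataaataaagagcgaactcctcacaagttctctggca

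Each of the 5 genes had an ISRE-like match, all on the minus strand, within 300-base windows from 250 bases before to 50 after the start. The match began at base -165 from the start in Gbp5, at -53 in Gbp7, at -45 and -39 (overlapping) in Gbp3, at -137 in Gbp2b and at -59 in Gbp2. Its letters were the same in Gbp2b and Gbp2 (GAAAGTGAAA), and the same in Gbp7 and the first match of Gbp3 (GAAACTGAAA). GAS-like matches were found in Gbp5, at -245 and -52, and in Gbp7, at -106 and -87, and 1 of them read TTCTCAGAA in both genes. The second Gbp3 start had neither motif.

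Over all 32851 RefSeq promoter windows of this length, 3.44% held the ISRE-like motif, 8.30% the GAS-like motif and 0.454% both. Among the other genes that the authors listed as higher, 17.0% of 288 windows held the ISRE-like and 12.8% the GAS-like motif. Among the genes listed as lower, 1.98% and 5.14% of 253 windows did. These shares count windows, and by that count 5 of the members' 6 windows held the ISRE-like and 2 the GAS-like motif. A match is a string of letters and no measure of binding, and the members' own share is a description.

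**Figure D1:**
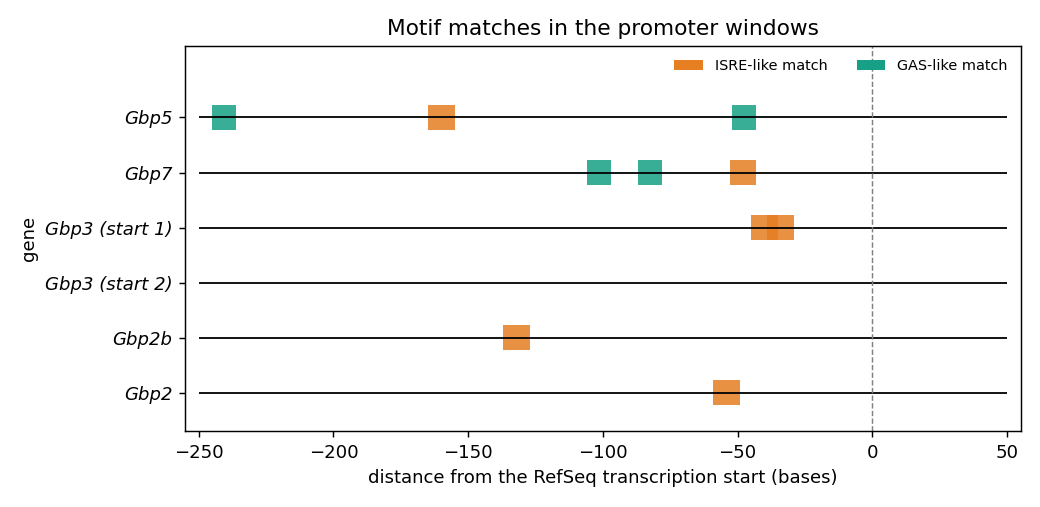
Positions of ISRE-like (orange) and GAS-like (green) matches from 250 bases before to 50 bases after each RefSeq transcription start, 1 line per window, with the start at 0. Gbp5 and Gbp7 have both kinds of match, and Gbp3, Gbp2b and Gbp2 have ISRE-like matches in this window.

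In coding sequence the genes fall into close pairs that are neighbours on the chromosome. Gbp2b and Gbp2 were identical at 82.5% of aligned coding bases and Gbp7 and Gbp3 at 79.5%, while the other pairs lay between 66.7% and 71.6%. The longest coding sequences hold 589 codons in Gbp2 and Gbp2b, 590 in Gbp5, 620 in Gbp3 and 638 in Gbp7. Despite this likeness, few stretches of 100 bases are shared. Of distinct 100-base words in their annotated transcripts, 0% in Gbp2 and Gbp2b, 0.694% in Gbp3 and 0.142% in Gbp5 occur in other genes' transcripts. In Gbp7, 9.59% occur in Gm43802, a pseudogene annotated inside Gbp7, so some reads of this pair may be counted for either. The sources used here do not give the read length, and shorter words were not tried.

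All 5 genes were almost silent in control aggregates, and 4 of them were among the more abundant listed transcripts with the cocktail. Summed over the members, the level was 494 to 516 FPKM in the cocktail libraries, against 0.348 to 0.838 FPKM in the controls. FPKM is a fragment number scaled to transcript length and library size. Comparison between genes, and so the order and shares below, rests on the length used for each gene. That length was not worked out here, since the count columns were not used. The annotated coding transcripts of Gbp7, for example, are 5.61 and 2.50 kb long. In bulk RNA, more cells expressing a gene and more RNA per cell cannot be told apart. In the fit across all 633 listed genes (limma on log2(FPKM + 1), adjusted p under 0.05), 5 of 5 members were called higher, where 57.3% of the listed genes were. Nothing is read from this share, since the list was chosen on this contrast. The fit called 363 listed genes higher and 270 lower, and 263 and 281 after quantile normalization of the listed genes.

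Gbp2, which in the mouse gathers on the Toxoplasma vacuole and limits the parasite, was the most abundant member. It had 206.0, 213.3 and 209.6 FPKM in the cocktail libraries, against 0.0930, 0.287 and 0.156 FPKM in the controls. The groups were far apart, the lowest cocktail library being 718-fold above the highest control. The ratio of the means, 209.6 ± 3.67 FPKM with the cocktail over 0.179 ± 0.0989 FPKM in the controls (SD, n = 3 each), was 1173.

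Gbp2b, the closest to Gbp2 in coding sequence among the members, had 136.2, 151.3 and 149.0 FPKM in the cocktail libraries. In the controls it had 0, 0.148 and 0.0932 FPKM. Every cocktail library was above every control, with 922-fold between the lowest cocktail library and the highest control, and the control values were uneven. The ratio of the means was 1811, and it was 1207 without control 1, which is listed at 0, and 3121 without control 2, the highest.

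Gbp7, which is linked in mouse macrophages to oxidative and autophagic killing, had 101.7, 106.8 and 102.4 FPKM in the cocktail libraries, against 0.255, 0.403 and 0.286 FPKM in the controls. It was the best expressed member in each control library and the third in each cocktail library. The ratio of the means was 329, with the lowest cocktail library 252-fold above the highest control, the smallest such gap among the 4 members with a control value above 0.

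Gbp3, the closest to Gbp7 in coding sequence among the members, had 49.1, 44.4 and 46.0 FPKM in the cocktail libraries. In the controls it had 0, 0 and 0.0200 FPKM. Control 3 was the only control above 0, and the lowest cocktail library was 2215-fold above it. A ratio of means would rest on that single value and is not given.

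Gbp5, known in the mouse as a promoter of NLRP3 inflammasome assembly, stayed low. It had 0.832, 0.709 and 0.581 FPKM in the cocktail libraries and was listed at 0 in all 3 controls, so no ratio is given. The groups did not overlap, yet no cocktail library reached 1 FPKM. Its mean with the cocktail was 65.7-fold below that of Gbp3, the next member in the order.

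Of the 3798 FPKM values of the list, 134 are 0, and the smallest above 0 is 0.00749 FPKM. In 6 genes, Gbp2b among them, a control listed at 0 stands beside another of at least 0.1 FPKM. A listed 0 may therefore not be a true absence, which was not tested.

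The order of levels with the cocktail was Gbp2, Gbp2b, Gbp7, Gbp3 and Gbp5 in each of the 3 libraries, and no neighbours in that order overlapped. The ratio of mean levels was 1.44 between Gbp2 and Gbp2b, 1.40 between Gbp2b and Gbp7, and 2.23 between Gbp7 and Gbp3. Of the members' summed FPKM, Gbp2 made up 41.4 ± 0.237%, Gbp2b 28.7 ± 1.01%, Gbp7 20.5 ± 0.270%, Gbp3 9.20 ± 0.689% and Gbp5 0.140 ± 0.0271% in the cocktail libraries (SD, n = 3). In the controls Gbp7 made up 48.1% to 73.2%, Gbp2 26.8% to 34.2%, Gbp2b 0% to 17.6% and Gbp3 0% to 3.60%, while Gbp5 was listed at 0. The share of Gbp7 was thus lower in every cocktail library than in any control, and the shares of Gbp2, Gbp2b, Gbp3 and Gbp5 were each higher. Shares sum to 100%, so they do not move independently, and the control shares rest on summed levels of at most 0.838 FPKM. Neighbours in the order of the controls, Gbp7, Gbp2, Gbp2b, Gbp3 and Gbp5, overlapped across libraries in every case. Within each control library, however, Gbp7 was highest and Gbp2 next.

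**Figure D2:**
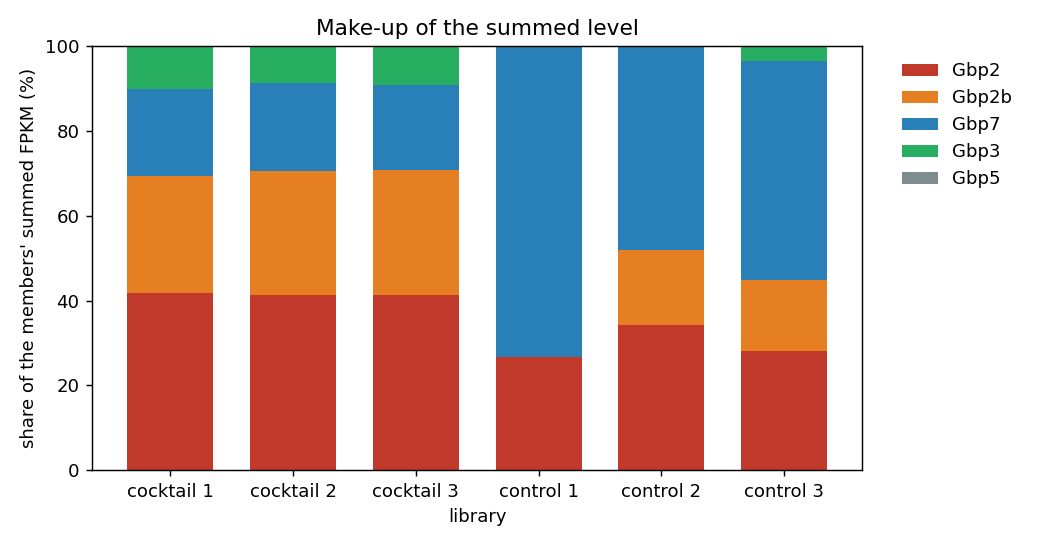
Share of each gene in the members' summed FPKM (%, stacked to 100) in the 3 cocktail libraries (left) and the 3 control libraries (right). The cocktail libraries are alike, led by Gbp2 with 41.4% on average, and the controls are led by Gbp7 with 57.6% on average and vary more, while Gbp5 is too small to see.

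Levels did not follow the position along the chromosome step by step, since Gbp7, second in the cluster, exceeded Gbp3, the third. Replicate spread was small for the abundant members, with coefficients of variation of 1.75% for Gbp2, 2.65% for Gbp7, 5.20% for Gbp3 and 5.60% for Gbp2b in the cocktail libraries. It was 17.7% for Gbp5.

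**Figure D3:**
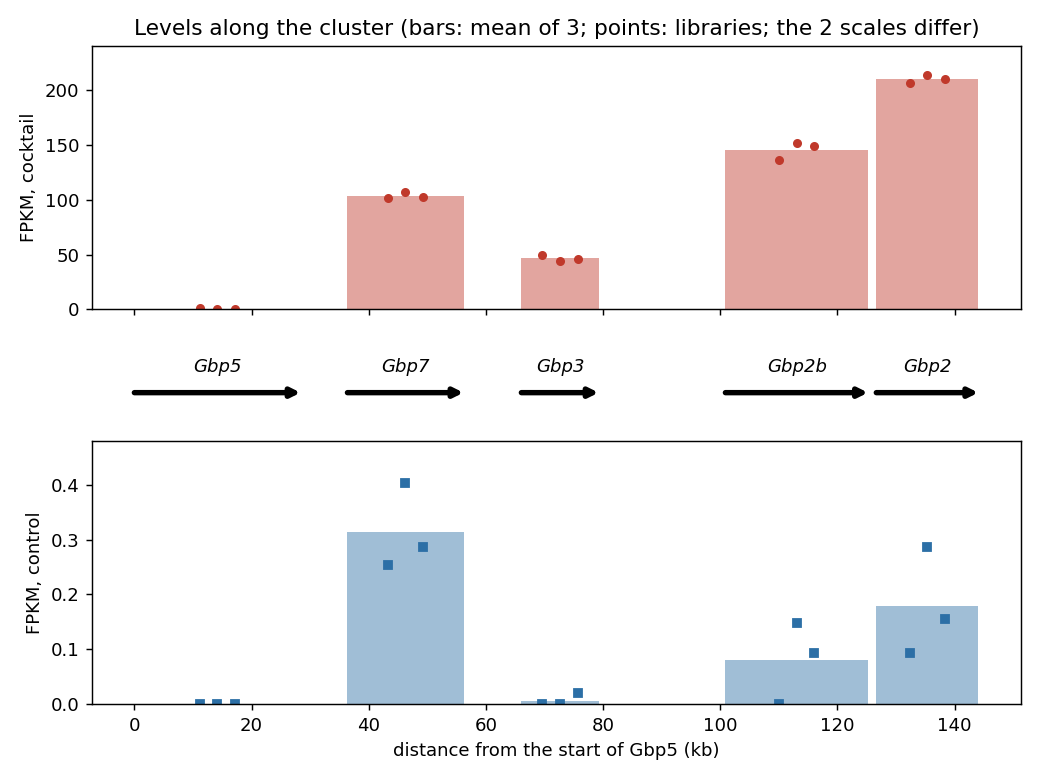
Mean FPKM (bars, as wide as the gene) and each library (points) along the cluster, by distance from the start of Gbp5 in kb, with cocktail above and control below on scales that differ. Arrows give each gene and its strand: with the cocktail the bars reach 209.6 FPKM at Gbp2, and in the controls the tallest bar is 0.315 FPKM at Gbp7.

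Set among all 633 listed genes, 4 members stood near the top with the cocktail and all 5 near the bottom in the controls. By mean level with the cocktail Gbp2 ranked 12th, Gbp2b 18th, Gbp7 27th, Gbp3 42nd and Gbp5 483rd, where the listed genes had a median of 2.13 FPKM. By mean level in the controls the same genes ranked 544th, 574th, 512th, 601st and 604th, with a median of 1.36 FPKM over the listed genes. By gain in FPKM the ranks were 10, 17, 23, 37 and 317. The authors listed 363 genes as higher, of which 194 (53.4%) had every control below 1 FPKM, against 39 (14.4%) of the 270 listed as lower. A control level below 1 FPKM was thus common among the higher genes, while 46 of those 363 reached a mean of 40 FPKM with the cocktail, Gbp2, Gbp2b, Gbp7 and Gbp3 among them.

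The authors' deposited table gives log2 fold changes of 12.39 for Gbp3, 10.84 for Gbp2b, 10.20 for Gbp2, 9.21 for Gbp5 and 8.63 for Gbp7. Among the 4 members with a control value above 0, that order is the reverse of their order in the controls, with Gbp3 first and Gbp7 last. On log2(FPKM + 1), which understates changes of low genes, the limma fit gave 7.48 (SE 0.08) for Gbp2, 7.08 (SE 0.09) for Gbp2b, 6.32 (SE 0.08) for Gbp7, 5.56 (SE 0.09) for Gbp3 and 0.77 (SE 0.07) for Gbp5. That order is the order of the cocktail levels, and every control lies below the added 1. The median over all listed genes was 0.57. With 0.1 added in place of 1, the values were 9.62 for Gbp2, 9.75 for Gbp2b, 7.98 for Gbp7, 8.77 for Gbp3 and 3.00 for Gbp5, so the order of the sizes depends on how values near 0 are handled.

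**Figure D4:**
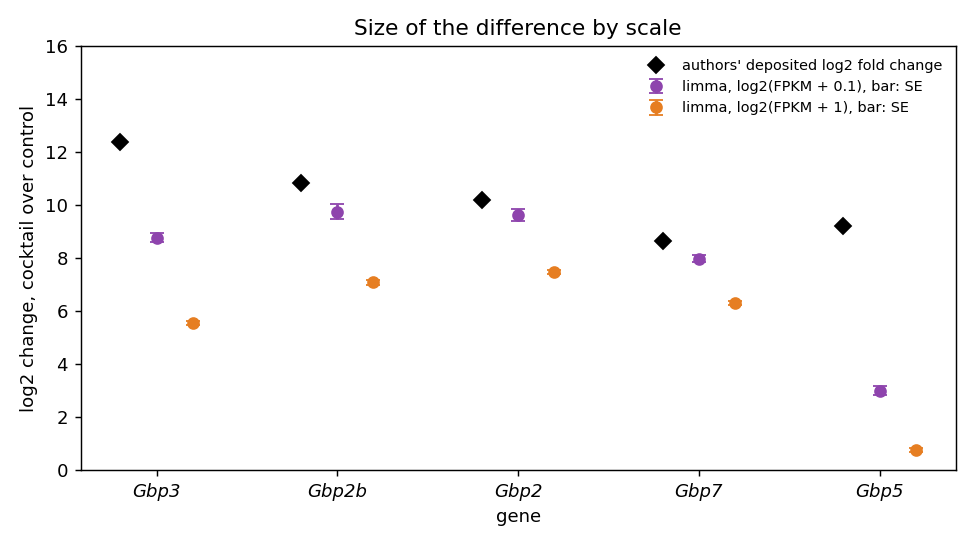
Log2 change of cocktail over control for each gene from the authors' deposited table (black), and from limma on log2(FPKM + 0.1) (purple) and log2(FPKM + 1) (orange), with bars for the SE. Gbp3 is first of the 5 in the authors' table at 12.39 and next to last with 1 added at 5.56, and Gbp5 spans 0.77 to 9.21.

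With the members themselves left out, the listed genes nearest to them in profile were mostly other interferon-inducible genes on other chromosomes. Nearness was the Euclidean distance of log2(FPKM + 1) over the 6 libraries. It compares levels within a list chosen on this contrast, so it is a description and no evidence of shared regulation. No other listed gene with an annotated position lay within 1 Mb of the cluster, so close neighbours could not appear here. Nearest to Gbp2 were the near-identical GTPase genes Tgtp1 (distance 0.484) and Tgtp2 (0.510), and nearest to Gbp2b were the GTPase gene Iigp1 (0.280) and the immunoproteasome subunit gene Psmb8 (0.314). Gbp7 lay nearest to the immunoproteasome subunit gene Psmb9 (0.495) and the GTPase gene Irgm2 (0.651), and Gbp3 to Gbp4 (0.246) of the chromosome 5 cluster and the GTPase gene Ifi47 (0.505). Gbp5 lay nearest to Apol6 (0.164), which had 0.808 ± 0.181 FPKM in cocktail libraries (SD, n = 3) and was listed at 0 in the controls, and to Tnfaip8l3 (0.341).

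The relatives on chromosome 5 were on the list as well. All 6 genes looked for there (Gbp4, Gbp6, Gbp8, Gbp9, Gbp10 and Gbp11) were called higher by limma. Their cocktail means ran from 1.25 FPKM (Gbp11) to 72.8 FPKM (Gbp6) with a median of 33.2 FPKM, against 0.708 to 209.6 FPKM with a median of 103.6 FPKM on chromosome 3. Summed, these 6 genes had 193.6 FPKM with the cocktail and 0.507 FPKM in the controls. Gm43302, a further listed gene annotated as a guanylate-binding protein, is in neither set. Its position is not given here, so the chromosome 5 sum may not cover every listed gene of that cluster. Each set holds 1 gene near 1 FPKM with the cocktail, Gbp5 and Gbp11, and both were listed at 0 in every control.

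**Figure D5:**
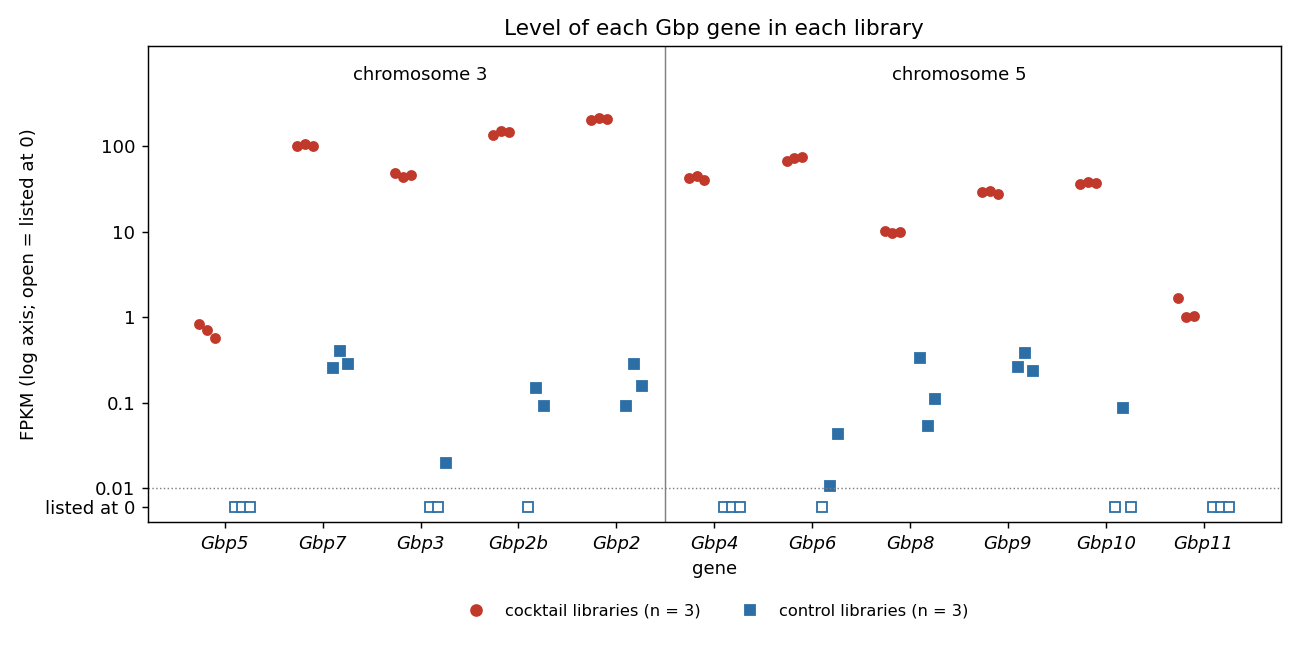
FPKM (log axis) of the 5 chromosome 3 genes and the 6 chromosome 5 genes in the 3 cocktail libraries (red circles) and the 3 control libraries (blue squares), with open squares for values listed at 0. Gbp2, Gbp2b, Gbp7 and Gbp3 lie between 44.4 and 213.3 FPKM with the cocktail, Gbp5 and Gbp11 lie far lower, and every control of the chromosome 3 genes is at or below 0.403 FPKM.

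Of 24 genes of interferon signalling looked for, inhibitors included, 13 were listed, and limma called these 13 higher and 0 lower. The others have no row in the list and no value here. Membership of the authors' list fixes such calls, so they are no independent evidence of direction for this or the other gene groups. Irf1, a factor that binds ISRE elements, had 145.5 ± 2.81 FPKM with the cocktail and 3.62 ± 0.509 FPKM in the controls (SD, n = 3 each). Stat2 and Irf9, transcription factors of interferon signalling, had 23.6 ± 1.55 and 19.7 ± 1.28 FPKM with the cocktail, against 5.57 ± 0.531 and 3.30 ± 0.744 FPKM in the controls. Irf8, another ISRE-binding factor, had 99.4 ± 4.24 FPKM with the cocktail and 0.753 ± 0.0257 FPKM in the controls, and Socs1, the feedback inhibitor of JAK kinases, had 14.3 ± 1.57 FPKM with the cocktail and 0.557 ± 0.184 FPKM in the controls (SD, n = 3 each). On log2(FPKM + 1) the median change was 2.28 over these 13 genes, against 6.32 over the 5 chromosome 3 genes.

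Of 16 genes for inflammasome and cell death partners, 4 were listed and called higher. Zbp1, a sensor of Z-form nucleic acids, had 17.9 ± 2.76 FPKM in cocktail libraries (SD, n = 3) and was listed at 0 in the controls. Trim21, a cytosolic antibody receptor, had 12.2 ± 0.151 FPKM with the cocktail and 1.91 ± 0.293 FPKM in the controls (SD, n = 3 each). Mlkl, the effector of necroptosis, stayed low, with 1.01 ± 0.230 FPKM in cocktail libraries and 0.173 ± 0.0636 FPKM in the controls, and so did Il18, an inflammasome substrate, with 2.67 ± 0.950 FPKM in cocktail libraries and 0.696 ± 0.343 FPKM in the controls (SD, n = 3 each). Casp1, Casp4, Aim2, Nlrp3 and Gsdmd, through which Gbp proteins act in macrophages, have no row in that list, and neither has any of 5 genes of protein prenylation. Of 13 other interferon-inducible GTPase genes looked for, 10 were listed, and all 10 were called higher.

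Markers of other cell types could not be read as levels, because the list holds changed genes only. None of 8 markers of macrophages and blood cells is on it, of 6 endothelial markers Kdr alone, which was lower (1.56 ± 0.173 FPKM with the cocktail and 4.97 ± 0.696 FPKM in the controls, SD, n = 3 each), and of 5 fibroblast markers Col3a1 and Pdgfra, both lower. Of 8 markers of oral and surface epithelium, Tfap2c is on it, with 4.13 ± 0.437 FPKM in cocktail libraries and 17.0 ± 0.444 FPKM in the controls (SD, n = 3 each). None of 5 neural progenitor markers and none of 3 pluripotency markers is on it. The part of any cell type in the Gbp levels was not tested.

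In the co-culture experiment, none of the 5 genes is among the 546 genes that the authors listed, nor is any of the 6 chromosome 5 genes. In that table, whose values are taken as FPKM, limma called 0 of 425 genes (0%) without pairing, with 86 at an unadjusted p under 0.05. The paired fit, blocked on replicate number, called 39 (179 unadjusted), and leaving out co-culture replicate 3 from the unpaired fit gave 330 calls of 449 genes. From the interferon signalling list it holds Stat3 and Socs1. Socs1 had 1.28, 5.66 and 1.07 FPKM with co-culture, against 0.506, 1.01 and 0.393 FPKM in the controls, with each co-culture library above each control. Its log2 difference was 0.96 (SE 0.50, limma adjusted p = 0.209, and 0.107 with the replicate number as a block), short of the threshold. The log2 differences given for co-culture are on log2(FPKM + 1), which understates changes of low genes. Stat3 had 25.8, 13.9 and 4.07 FPKM with co-culture, against 9.23, 5.62 and 3.29 FPKM in the controls, and the groups overlapped (log2 difference 0.93, SE 0.71, limma adjusted p = 0.274, and 0.174 with the block). Of the inflammasome list, Il18 and Gsdmd are in that table. Il18 had 0.382, 0.306 and 1.28 FPKM with co-culture, against 1.69, 2.08 and 1.35 FPKM in the controls, with each co-culture library below each control. The log2 difference of Il18 was -0.75 (SE 0.40, limma adjusted p = 0.209, and 0.164 with the block), short of the threshold. Gsdmd, the pore-forming substrate of inflammatory caspases, averaged below 1 FPKM in both groups and was not tested.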

How the data were processed

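The values come from 6 poly(A) RNA libraries of the cocktail experiment and 6 of the co-culture experiment, in tables limited to genes the authors selected. Per the submitters' processing notes, reads were aligned with HISAT2 to GRCm38; the quantifier is not named there. Per the file headers, the cocktail table holds FPKM for each library, with a log2 fold change and an adjusted p-value (FDR, at most 0.0099) computed by the authors. The co-culture values carry no unit in the deposited table and are taken as FPKM.

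Column names of the cocktail table gave the group but no sample title, so its FPKM columns were 3 unnumbered replicates per group. Its 6 count columns were not used, which was a choice made here and not a limit of the data. Tests on counts, although foreseen, were replaced by limma on FPKM. A further 6 columns named by numbers alone were not used. Depth was therefore not analysed here. No 2 cocktail or control libraries held identical values.

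limma 3.58.1 (R 4.3.3, with trend) was run on log2(FPKM + 1) over all 633 genes, with Benjamini-Hochberg adjustment and a threshold of 0.05. A run on simulated data used higher control levels than those of the members and smaller changes than those of the abundant members. It therefore does not cover control values near 0. The co-culture table was fitted alone in the same way, on genes averaging 1 or more in the treated or control group. Deviations of co-culture and control libraries of the same number had correlations of 0.606, 0.143 and 0.256. The numbers were treated as pairs in an alternative fit. This check does not establish pairing, since libraries of different numbers were not compared and the genes were selected on these libraries.

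Promoter sequences are from RefSeq (GRCm38.p6), with 5 of 5 members matched by symbol, and transcripts and positions from GENCODE M21. Coding sequences were aligned globally with Biopython 1.88. The text names the members, genes of the lists (not every one is reported here), the 2 nearest profiles per member and any listed gene within 1 Mb. Members and lists were chosen with earlier results of these data known. Alternatives were another pseudocount, a filter, quantile normalization (chosen after seeing the data) and leaving out each library.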

Additional observations from a re-analysis of the deposited data

How the results depend on the processing

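All fitted changes of the 5 members were positive under the alternatives that gave them a value. Nearly every gene tested was called in each fit other than quantile normalization, since the list was chosen on this contrast, so those calls say nothing about stability. limma called 633 of 633 listed genes with 1 or 0.1 added, and 631 to 633 without 1 library. Quantile normalization shifted the log2 change of a gene by a median of -0.41. It gave 544 calls, 263 higher and 281 lower, where the authors listed 270 genes as lower, so some genes listed as higher were called lower. The members' changes were then 6.22 for Gbp2, 5.99 for Gbp2b, 5.22 for Gbp7, 4.76 for Gbp3 and 0.57 for Gbp5. A filter at a mean of 1 FPKM left 530 genes and removed Gbp5. Fits on counts (other scalings, another tool and a count filter), although foreseen, were not run, since the counts were not used. No paired analysis was possible for the cocktail experiment because its columns carry no sample numbers. In the co-culture table limma called 0 of 425 genes, and 39 with the replicate block. Leaving out 1 library there gave 0 to 330 calls, with 330 without co-culture replicate 3 and 1 without control replicate 1. Control values near 0 limit every ratio, most of all for Gbp3, Gbp2b and Gbp5.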

Other observations

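A further gene annotated as a guanylate-binding protein by the deposited table, Gm43302, was found by that annotation after its values were seen. It had 34.2, 32.6 and 31.3 FPKM in the cocktail libraries, against 0, 0.0260 and 0 FPKM in the controls. Its level with the cocktail lay below that of Gbp3 and far above that of Gbp5.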
